A study of Mus musculus with 8 samples.

Results

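The Cadm and nectin family of immunoglobulin-like adhesion molecules was examined in 4 isogenic mouse mammary tumour lines of BALB/c origin. The family was taken as 9 genes, Cadm1 to Cadm4, Nectin1 to Nectin4 and Pvr, out of 27179 genes with a read count, and members were found by matching the Entrez identifier of each row to its gene symbol. RNA-seq had been performed on total RNA of the tumour cell lines 4T1.2, 4T1, 66cl4 (spelled 66c14 in the sample labels) and 67NR, with 2 biological replicates of each line and no treatment. The study describes 66cl4 and 67NR as related lines of low metastatic potential compared with 4T1 and 4T1.2. Each name stands for a single cell line, so a difference between lines cannot be told apart from a peculiarity of that line, and p-values measure the spread between the replicates of these lines. Cadm1 was chosen by its counts in these libraries, which differ strongly across the lines, so its values are given as a description with no test. The other 8 genes were included by family name, with earlier results of these data known.

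Nectins and Cadm proteins (also called nectin-like molecules or SynCAMs) are single-pass membrane proteins that bind partners on neighbouring cells through their immunoglobulin-like domains. Nectins are tied to actin by the adaptor afadin and cooperate with cadherins at adherens junctions of epithelia. Cadm proteins instead bind band 4.1 proteins and membrane-associated guanylate kinases such as CASK, and are known for roles at synapses and at epithelial contacts. Pvr, Nectin2 and Cadm1 are also ligands of receptors on T cells and natural killer cells.

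The 8 libraries held 37159840 to 66269681 counted reads, and log2 CPM values (counts scaled to a common library size) of the 2 replicates of a line correlated with a Pearson r of 0.995 to 0.996 across genes. The test compared 13913 genes with edgeR's quasi-likelihood method over all 8 libraries, with Benjamini-Hochberg adjustment over those genes and a threshold of 0.05. Epithelial markers also differed between the pairs of lines. All 9 tested epithelial markers of a list of 10 were higher in the 4T1 and 4T1.2 mean than in that of 66cl4 and 67NR. Their median log2 fold change was 6.17, and 38.1% of all tested genes were called higher. Epcam, Cdh1, Krt19, Cldn3, Cldn4 and Cldn7 had few or no reads in 66cl4 and 67NR. These genes passed the filter on low counts only through the other pair. Their direction, and the count and median that include them, are therefore descriptions. Krt5, the untested marker, ran the other way at a very low level. Its mean was lowest in 4T1.2 (0.0176 CPM) and highest in 67NR (0.114 CPM). The summed epithelial marker level was 1512 to 1771 CPM in 4T1.2, 2266 to 2999 CPM in 4T1, 718 to 720 CPM in 66cl4 and 465 to 529 CPM in 67NR, and Epcam had no read in 66cl4. Krt8 and Krt18 made up most of that sum, at 605 and 114 CPM in 66cl4, and Krt8 alone did in 67NR (496 CPM). Of 9 tested mesenchymal markers out of 10, 7 were lower in 4T1 and 4T1.2 and 2, Vim and Pdgfra, were higher. Of all tested genes, 38.6% were called lower. Among the 7, Cdh2 and Col1a2 passed the filter only through 66cl4 and 67NR, so their direction is a description. The summed mesenchymal marker level was not lower in 4T1.2 and 4T1. It was 5572 to 6696 CPM in 4T1.2, 5649 to 7575 in 4T1, 5002 to 5912 in 66cl4 and 3451.5 to 3525 in 67NR. Vim was its largest part in each line. Leucocyte markers summed to 0.290 to 1.17 CPM and endothelial markers to 0.335 to 3.70 CPM. The part of these marker differences in the results for the adhesion genes was not tested.

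Cadm1, which encodes the homophilic and heterophilic adhesion molecule known as SynCAM1 or Necl2, was nearly without reads in 4T1.2 and 4T1 and abundant in 66cl4 and 67NR. The gene lies on chromosome 9 from 47530170 to 47862280 (GRCm38.p6). It had 12 and 13 reads in the 4T1.2 libraries and 20 and 24 reads in the 4T1 libraries. It had 20497 and 18894 reads in 66cl4, and 8992 and 15149 reads in 67NR. Every library of 66cl4 and 67NR was thus far above every library of 4T1.2 and 4T1, and the unequal counts within 67NR followed the unequal depth of its libraries.

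To compare genes, counts were scaled to reads per kilobase of counted gene length at a common library size (RPKM). The Cadm1 level was 0.0482 and 0.0523 RPKM in 4T1.2 and 0.0747 and 0.118 RPKM in 4T1. It was 103 and 96.2 RPKM in 66cl4 and 56.0 RPKM in both 67NR libraries. These levels placed Cadm1 at or above 95.02% of the tested genes in 66cl4 and 89.0% in 67NR, but at or above 7.79% in 4T1.2 and 9.40% in 4T1. The fitted Cadm1 level was 1079-fold lower in the 4T1 and 4T1.2 mean than in that of 66cl4 and 67NR. Among single lines, the fitted log2 difference ran from -9.21 for 4T1 against 67NR to -10.94 for 4T1.2 against 66cl4. Within the pairs the Cadm1 differences were much smaller, at -0.89 for 4T1.2 against 4T1 and 0.83 for 66cl4 against 67NR on the log2 scale. The first of these was -1.22 without 4T1 replicate 1 and -0.57 without 4T1 replicate 2. In these bulk libraries fewer expressing cells and less RNA per cell cannot be told apart.

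**Figure D1:**
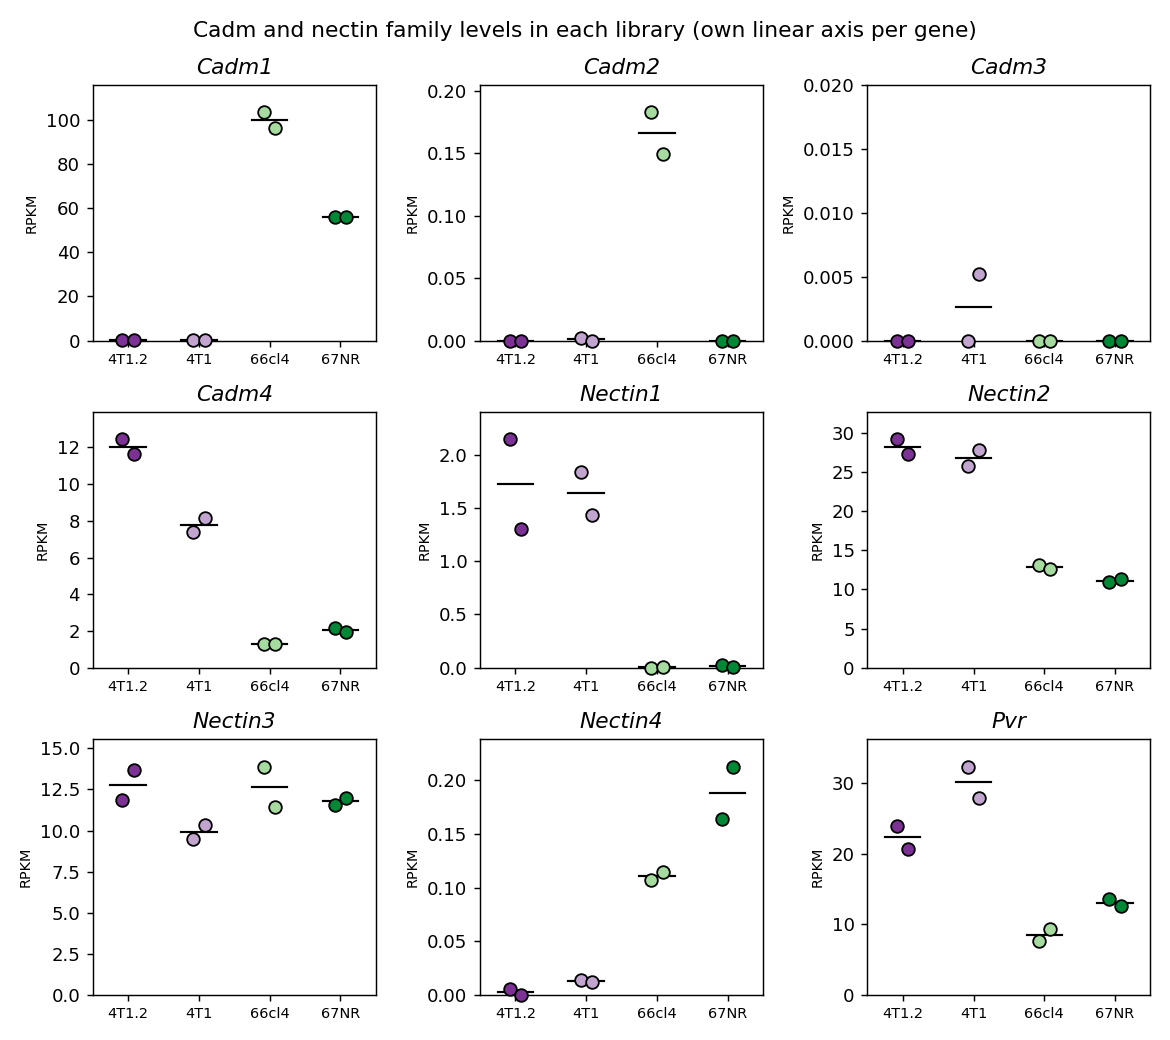
Level of each of the 9 genes in every library in RPKM on a linear axis of its own, with points for the 2 replicates and a line for the mean of each cell line. Cadm1 reached 103 RPKM in 66cl4 and at most 0.118 RPKM in 4T1.2 and 4T1, whereas Cadm4, Nectin1, Nectin2 and Pvr were higher in 4T1.2 and 4T1 and Nectin3 lay within 9.46 to 13.9 RPKM in all libraries.

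Cadm4 (SynCAM4, chromosome 7, 24482023 to 24504533), an adhesion molecule known from Schwann cells and epithelia, had the opposite order to Cadm1 and differed between all 4 lines. Its counts were 1520 and 1424 for 4T1.2 and 972 and 812 for 4T1, beside 126 and 125 for 66cl4 and 169 and 260 for 67NR. The mean Cadm4 level was 12.05 ± 0.540 RPKM for 4T1.2 and 7.76 ± 0.525 for 4T1, compared with 1.29 ± 0.00189 for 66cl4 and 2.05 ± 0.131 for 67NR (SD, n = 2). No library of 4T1.2 or 4T1 overlapped those of 66cl4 and 67NR. Cadm4 was 5.95-fold higher in the mean of 4T1 and 4T1.2 (log2 difference 2.57, SE 0.09), with an adjusted p of 2.31e-09 by edgeR's quasi-likelihood test. It was also higher in 4T1.2 than in 4T1 (log2 difference 0.63, SE 0.11, edgeR adjusted p 0.00346). Within the other pair it was lower in 66cl4 than in 67NR (log2 difference -0.66, SE 0.13, edgeR adjusted p 0.00307). The order 4T1.2, 4T1, 67NR and 66cl4 therefore held at each step.

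Cadm2 (SynCAM2, chromosome 16, 66655416 to 67620917), best known from neurons, was counted above 1 read in 66cl4 alone. The gene had 79 and 64 reads in 66cl4, 1 and 0 reads in 4T1, and none in 4T1.2 or 67NR. Its level in 66cl4 was 0.166 ± 0.0235 RPKM (SD, n = 2), at or above 12.9% of the tested genes. Against a floor of 3 reads over the 2 libraries of a line, 66cl4 was at least 60.04-fold higher than 4T1.2 and at least 52.1-fold higher than 67NR. The ratio to the single read in 4T1 was 171, with a 95% counting interval of 30.1 to 6782. The gene passed the filter on low counts through 66cl4 alone, so no p is given for 66cl4 against the other lines, and comparisons among the other 3 lines could not be estimated. Of its exonic bases, 2.61% overlap the antisense gene 1700010K23Rik, and whether reads were counted by strand is not stated. Cadm3 (SynCAM3, chromosome 1, 173331892 to 173368139), a further neuronal member, had 1 read in all, in 4T1 replicate 2, and did not pass the filter on low counts. Of its exonic bases, 4.98% overlap Ackr1 on the same strand. A library without a Cadm3 read allows a level of up to 0.0117 to 0.0197 RPKM, which is 3 reads at that library's depth. These floors and counting intervals cover counting error only.

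Nectin1 (chromosome 9, 43737075 to 43807461), a nectin with a strong heterophilic preference for Nectin3, was expressed in 4T1.2 and 4T1 and nearly without reads in 66cl4 and 67NR. It had 615 and 372 reads for 4T1.2 and 567 and 336 for 4T1, beside 0 and 1 for 66cl4 and 5 and 1 for 67NR. The mean Nectin1 level was 1.72 ± 0.597 RPKM in 4T1.2 and 1.63 ± 0.285 RPKM in 4T1 (SD, n = 2). The ranges of 4T1.2 and 4T1 overlapped, and neither reached those of 66cl4 or 67NR. The ratio of 4T1.2 to 66cl4 was 784, with a 95% counting interval of 140 to 30979 set by a single read in 66cl4. Against 67NR, with 6 reads, the ratio was 143 (65.3 to 390). The ratios of 4T1 were alike, at 757 (136 to 29943) over 66cl4 and 138 (63.1 to 377) over 67NR. Nectin1 passed the filter through 4T1.2 and 4T1 alone, so its difference between the means of the pairs is given with no p. The fitted log2 difference of 8.17 depends on the prior count added to low counts and was 6.90 with a prior count of 2. It was 9.42 without 66cl4 replicate 2 and 9.07 without 67NR replicate 1. Over all left-out libraries it ran from 7.61 to 9.42. Between 4T1.2 and 4T1 no Nectin1 difference was called (log2 difference 0.07, interval -0.53 to 0.67, edgeR adjusted p 0.902).

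Nectin2 (chromosome 7, 19716644 to 19749573), the most abundant nectin of 4T1.2 and 4T1 and a ligand of immune receptors, was present in all 4 lines at different levels. It had 5696 and 5316 reads for 4T1.2 and 5421 and 4439 for 4T1, beside 2049 and 1948 for 66cl4 and 1375 and 2400 for 67NR. The mean Nectin2 level was 28.2 ± 1.34 RPKM for 4T1.2 and 26.8 ± 1.44 for 4T1, compared with 12.9 ± 0.369 for 66cl4 and 11.1 ± 0.282 for 67NR (SD, n = 2). The libraries of each pair of lines lay together and those of different pairs did not overlap. Nectin2 was 2.30-fold higher in the mean of 4T1 and 4T1.2 (log2 interval 1.06 to 1.34, edgeR adjusted p 6.01e-08). Neither difference within a pair was called, at 0.07 for 4T1.2 against 4T1 (interval -0.12 to 0.27, edgeR adjusted p 0.624) and 0.22 for 66cl4 against 67NR (interval 0.02 to 0.41, edgeR adjusted p 0.0747). Of the exonic bases of Nectin2, 3.86% overlap the antisense gene Gm20512, and whether reads were counted by strand is not stated.

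Nectin3 (chromosome 16, 46387665 to 46498535), the heterophilic partner of Nectin1, Nectin2 and Pvr, had nearly the same level in all lines. Its counts were 2795 and 3213 for 4T1.2 and 2394 and 1985 for 4T1, beside 2605 and 2126 for 66cl4 and 1753 and 3067 for 67NR. The mean Nectin3 level was 12.8 ± 1.27 RPKM for 4T1.2 and 9.90 ± 0.617 for 4T1, compared with 12.7 ± 1.72 for 66cl4 and 11.8 ± 0.319 for 67NR (SD, n = 2). Only 4T1 had both libraries below those of the other lines. No difference was called between the means of the pairs (log2 difference -0.12, interval -0.30 to 0.07, edgeR adjusted p 0.213). Nectin3 was lower in 4T1 than in 66cl4 (log2 difference -0.36, SE 0.12, edgeR adjusted p 0.0208). That call was lost without 4T1 replicate 1 (edgeR adjusted p 0.0742) and without 66cl4 replicate 1 (edgeR adjusted p 0.175). The difference of 0.37 between 4T1.2 and 4T1 missed the threshold (edgeR adjusted p 0.0551) and passed it without 66cl4 replicate 1 (0.0418) or 66cl4 replicate 2 (0.0416), and by DESeq2 with all libraries (adjusted p 0.0322). No neighbouring lines in the order 4T1.2, 66cl4, 67NR and 4T1 were called different.

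Nectin4 (chromosome 1, 171370173 to 171388287), a nectin known from embryonic tissue and carcinomas, was scarce in every line. It had 1 and 0 reads for 4T1.2 and 3 and 2 for 4T1, beside 17 and 18 for 66cl4 and 21 and 46 for 67NR. The highest mean level, 0.188 ± 0.0348 RPKM in 67NR (SD, n = 2), was at or above 13.9% of the tested genes. In 66cl4 the mean was 0.111 ± 0.00527 RPKM. The 4 libraries of 66cl4 and 67NR all lay above the other 4. The ratio of 67NR to 4T1 was 14.6, with a 95% counting interval of 5.97 to 46.5, and that of 66cl4 to 4T1 was 8.35 (3.26 to 27.3). Over the single read of 4T1.2 the ratios were 77.3 (13.4 to 3098) for 67NR and 44.1 (7.41 to 1791) for 66cl4. Nectin4 passed the filter through 66cl4 and 67NR alone, so its fitted log2 difference between the means of the pairs is given with no p, at -4.45, or -3.11 with a prior count of 2. Over all left-out libraries it ran from -5.54, without 4T1.2 replicate 1, to -4.03. The difference between 66cl4 and 67NR was not called (log2 difference -0.79, interval -1.52 to -0.05, edgeR adjusted p 0.0787).

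Pvr (chromosome 7, 19903578 to 19921143), the nectin-like molecule Necl5 or CD155 and a ligand of the immune receptors Cd226, Tigit and Cd96, differed between all 4 lines. It had 3924 and 3397 reads for 4T1.2 and 5706 and 3731 for 4T1, beside 991 and 1202 for 66cl4 and 1432 and 2234 for 67NR. The mean Pvr level was 22.4 ± 2.25 RPKM for 4T1.2 and 30.1 ± 3.17 for 4T1, compared with 8.44 ± 1.21 for 66cl4 and 13.0 ± 0.704 for 67NR (SD, n = 2). No 2 lines overlapped in RPKM. Pvr was 2.48-fold higher in the mean of 4T1 and 4T1.2 (log2 difference 1.31, SE 0.09, edgeR adjusted p 5.61e-07). It was lower in 66cl4 than in 67NR (log2 difference -0.63, SE 0.13, edgeR adjusted p 0.00337). Between 4T1.2 and 4T1 it was lower in the former (log2 difference -0.43, SE 0.13, edgeR adjusted p 0.0392), and this call rested on single libraries. The adjusted p of that comparison by the same edgeR test was 0.0628 without 4T1.2 replicate 1, 0.21 without 4T1.2 replicate 2 and 0.115 without 4T1 replicate 1. It was 0.0737 when either replicate of 67NR was left out.

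**Figure D2:**
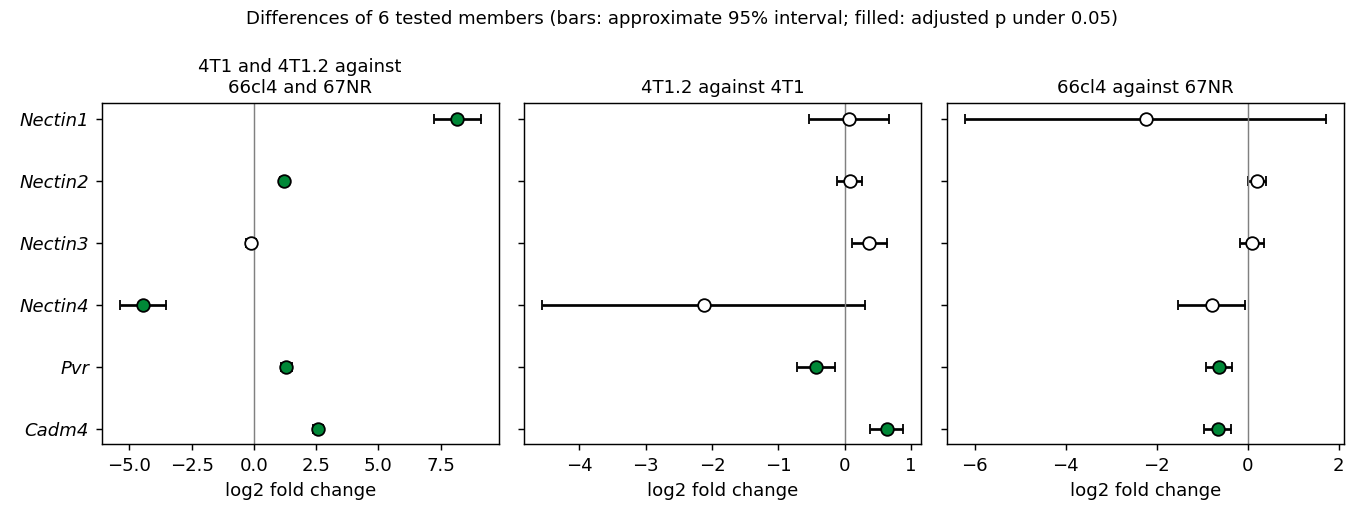
Log2 fold changes of the 6 members other than Cadm1 that could be estimated in all 3 comparisons, with approximate 95% intervals, for 4T1 with 4T1.2 over 66cl4 with 67NR (left), 4T1.2 against 4T1 (middle) and 66cl4 against 67NR (right). Filled points passed an adjusted p of 0.05, and the wide intervals of Nectin1 and Nectin4 belong to lines with few reads. Both genes passed the filter on low counts through a single pair of lines, so their filled points on the left are descriptions.

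Counted over the comparisons, the members' calls are set beside the share of all tested genes called. Between the means of the pairs, 5 of 6 estimable members other than Cadm1 were called, where 76.7% of all tested genes were. Of these, Cadm4, Nectin1, Nectin2 and Pvr were higher in 4T1 and 4T1.2, as were 38.1% of all genes, and Nectin4 was lower, as were 38.6%. The calls of Nectin1 and Nectin4 are descriptions, since they passed the filter on low counts only through the pair where they are high. Libraries of the pairs did not overlap for those 5 members and for Cadm1, which was also the case for 55.5% of all tested genes. Between 4T1.2 and 4T1, 2 of 6 were called against 19.3% of all genes, with Cadm4 higher in 4T1.2 (9.37% of all genes) and Pvr lower (9.90%). Of 9 tested epithelial markers, 8 were lower in 4T1.2 than in 4T1 by the same test. Between 66cl4 and 67NR, 3 of 7 were called against 44.6%, with Cadm2 higher in 66cl4 (22.3% of all genes) and Cadm4 and Pvr lower (22.4%). The Cadm2 call is likewise a description, since Cadm2 passed the filter through 66cl4 alone.

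Lines of different pairs were also compared singly. For 4T1.2 against 66cl4, 6 of 7 members were called (68.8% of all genes), 4 of them higher (34.3%) and 2 lower (34.5%) in 4T1.2. For 4T1.2 against 67NR, 5 of 6 were called (67.8%), with 4 higher (33.7%) and Nectin4 lower (34.1%). For 4T1 against 66cl4, all 7 estimable members were called (70.0%), with 4 higher (34.9%) and 3 lower (35.2%), namely Cadm2, Nectin3 and Nectin4. For 4T1 against 67NR, 5 of 6 were called (68.2%), again with 4 higher (33.8%) and Nectin4 lower (34.4%). The 4 higher members were Cadm4, Nectin1, Nectin2 and Pvr each time. In the joint test of any difference among the 4 lines, all 7 tested members were called beside 84.7% of all genes, with Nectin3 nearest to the threshold (edgeR adjusted p 0.0472, and above 0.05 without 4T1.2 replicate 2, 66cl4 replicate 1 or any single library of 4T1 or 67NR, with values of 0.051 to 0.178). It was 0.0534 without the filter on low counts and 0.0568 without removal by annotation. Nectin1, Nectin4 and Cadm2 passed the filter on low counts only through the lines where they are high, so these counts are descriptions of the members that passed.

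The levels per length can be added to describe the makeup of the family in each line. The 9 genes summed to 79.6 and 74.7 RPKM in 4T1.2 and 76.9 and 75.7 RPKM in 4T1. They summed to 139 and 131 RPKM in 66cl4 and 94.3 and 94.0 RPKM in 67NR. Cadm1 made up 74.0 and 73.4% of the sum in 66cl4 and 59.4 and 59.6% in 67NR, but 0.0606 to 0.156% in 4T1.2 and 4T1. In 4T1.2 and 4T1 the sum was mainly Nectin2, with 33.5 to 36.7%, and Pvr, with 27.8 to 42.1%. Without Cadm1 the family was thus made up mostly of Nectin2, Pvr and Nectin3 in every line, with Cadm4 as a further large part in 4T1.2 (15.6% in both libraries) and 4T1 (9.61 and 10.7%).

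**Figure D3:**
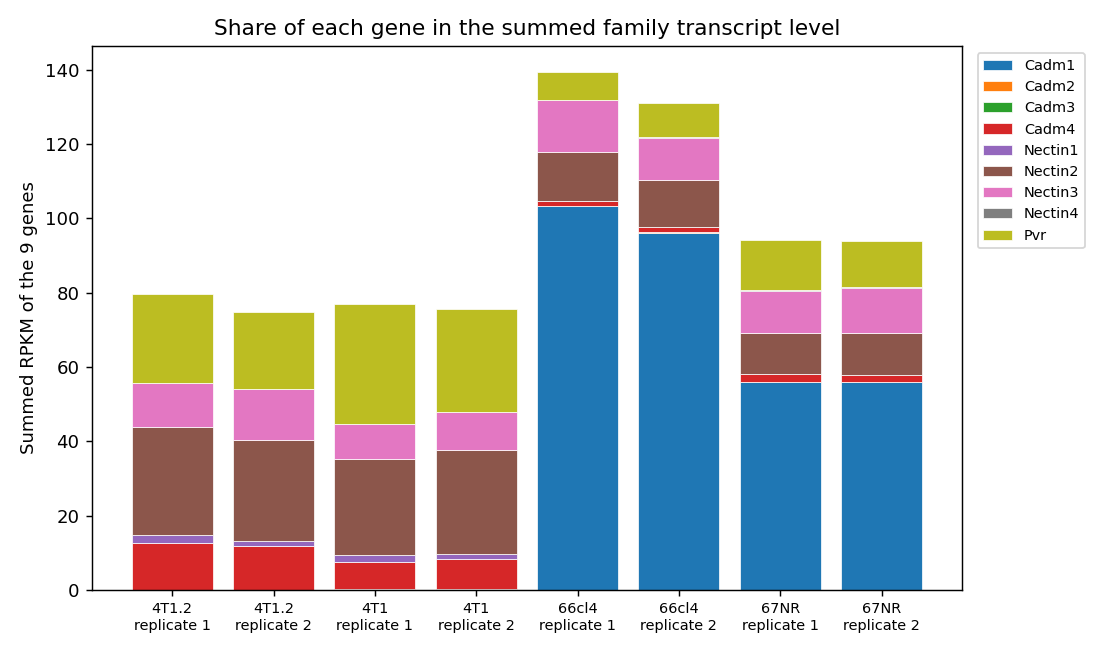
Summed level of the 9 genes in each library in RPKM, with stacked bars divided by gene. The Cadm1 segment filled 73.4 to 74.0% of the bar in 66cl4 and 59.4 to 59.6% in 67NR and is too thin to see in 4T1.2 and 4T1, where Nectin2 and Pvr were the main segments.

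Promoter sequence was read for the members that RefSeq lists in the window from 250 bases before to 50 bases after the start (6 of 9 genes, GRCm38.p6), and 3 are shown because they differ in base composition and moved differently between the pairs: Cadm4 and Nectin2 were higher and Nectin4 lower in 4T1 and 4T1.2. Each is printed 5′ to 3′ for the 250 bases before the start, with the GC box GGGCGG or its reverse complement CCGCCC in capitals.
Cadm4, chr7:24481773-24482022, + strand: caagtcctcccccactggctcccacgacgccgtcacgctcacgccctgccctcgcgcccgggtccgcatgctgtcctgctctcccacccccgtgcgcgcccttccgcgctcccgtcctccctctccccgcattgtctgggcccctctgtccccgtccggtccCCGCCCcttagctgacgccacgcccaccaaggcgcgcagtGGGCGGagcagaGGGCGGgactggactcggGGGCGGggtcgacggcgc
Nectin2, chr7:19749574-19749823, - strand: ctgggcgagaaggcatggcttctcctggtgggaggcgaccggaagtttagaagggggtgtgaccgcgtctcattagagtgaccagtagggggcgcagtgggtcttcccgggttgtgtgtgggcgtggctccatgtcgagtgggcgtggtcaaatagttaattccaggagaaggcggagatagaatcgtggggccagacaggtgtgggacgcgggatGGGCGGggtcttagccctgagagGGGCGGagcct
Nectin4, chr1:171369923-171370172, + strand: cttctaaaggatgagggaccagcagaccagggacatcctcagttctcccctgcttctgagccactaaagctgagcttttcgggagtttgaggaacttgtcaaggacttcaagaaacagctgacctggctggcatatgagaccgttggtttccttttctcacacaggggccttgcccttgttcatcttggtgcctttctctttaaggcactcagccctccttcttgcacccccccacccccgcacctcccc

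Over the whole window of 300 bases, the dinucleotide CG occurred 40 times in Cadm4 and Nectin3, 20 times in Nectin2, 17 in Cadm3, 15 in Cadm2 and 3 in Nectin4, beside a median of 7 in 32851 windows. The GC box, which Sp family factors can bind, was found on either strand 5 times in Nectin3, 4 times in Cadm4, 3 times in Nectin2 and once in Cadm2, and not in Cadm3 or Nectin4. It occurs in 35.7% of all windows. The E-box CAGGTG or CACCTG, the letters read by the ZEB and SNAI repressors, was found once each in Cadm4 and Nectin2, and it occurs in 20.2% of all windows. The AP-1 letters TGANTCA were found once, in Cadm3, beside 7.81% of all windows. These matches describe letters only. The 3 sequences shown were picked with their direction known, so they cannot show a link between base composition and level. Nectin3, not called between the means of the pairs, had as many CG as Cadm4 and the most GC boxes. Promoters of Cadm1, Nectin1 and Pvr were not analysed here.

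The cytoplasmic partners of the Cadm proteins moved in both directions between the pairs. Of 11 tested, 4 were higher and 5 lower in the mean of 4T1 and 4T1.2, where 76.7% of all tested genes were called, with a median log2 fold change of -0.11 beside -0.01 for all genes. Cask, a guanylate kinase scaffold that binds the Cadm1 tail, averaged 0.0794 ± 0.0126 CPM for 4T1.2 and 0.0652 ± 0.000555 for 4T1, against 53.3 ± 5.31 CPM for 66cl4 and 42.3 ± 0.997 for 67NR (SD, n = 2). Its log2 difference between the means of the pairs was -9.32, with lows in the same lines as Cadm1. Mpp3, another guanylate kinase scaffold of this group, ran the other way, at 5.996 ± 0.591 CPM in 4T1.2, 6.75 ± 1.14 in 4T1, no reads in 66cl4 and a single read in 67NR. Against a floor of 3 reads over the group, Mpp3 exceeded 66cl4 in 4T1.2 (at least 180-fold higher) and in 4T1 (at least 206-fold higher). Mpp2, of the same scaffold family, was higher in the mean of 4T1 and 4T1.2 by 3.66 (SE 0.12, edgeR adjusted p 1.61e-09). The band 4.1 protein gene Epb41l3 was lower by the same comparison (log2 difference -3.48). Cask, Mpp3 and Epb41l3 had few or no reads in a pair of lines, and their differences are given with no p. They passed the filter on low counts through the other pair alone. Their place among the 4 higher and 5 lower is therefore a description. Between 4T1.2 and 4T1, 2 of the 11, Epb41l1 and Tiam1, were higher and none lower, beside 19.3% of all genes called, and between 66cl4 and 67NR 6 were higher and 1 lower, beside 44.6%.

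The adaptors that tie nectins to actin and the catenins also moved in both directions. Of 11 tested, 3 were higher, 5 lower and 3 not called between the means of the pairs, beside 76.7% of all genes called, with a median log2 fold change of -0.10. Afdn, which encodes afadin, was lower in 4T1 and 4T1.2 (log2 difference -0.66, SE 0.09, edgeR adjusted p 7.44e-05). The largest falls were in Pard3, a polarity protein (-0.89, edgeR adjusted p 1.81e-06), and Ssx2ip, an afadin-binding protein also called ADIP (-0.85, edgeR adjusted p 9.2e-07). The largest rises were in Rap1b, a small GTPase (0.88, edgeR adjusted p 5.9e-07), and Lmo7, which links afadin to actinin (0.64, edgeR adjusted p 6.73e-06). Of the 11, none was called between 4T1.2 and 4T1 by edgeR (19.3% of all genes), and 5 were higher and 3 lower in 66cl4 than in 67NR (44.6% of all genes).

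Among the sheddases and gamma-secretase subunits that cut adhesion molecules at the membrane, 3 of 7 were higher and 2 lower between the means of the pairs, beside 76.7% of all genes called, with a median log2 fold change of 0.15. Adam17 was higher by 0.82 (edgeR adjusted p 1.42e-06) and Adam10 by 0.30 (edgeR adjusted p 0.00173). Aph1a was lower at -0.64 (edgeR adjusted p 9.13e-06) and Psen2 at -0.32 (edgeR adjusted p 0.00363). Between 4T1.2 and 4T1 only Psenen was called, lower in 4T1.2 (-0.44, edgeR adjusted p 0.0425), and the count fell to 0 when any single library of 4T1.2, 4T1 or 67NR was left out. Between 66cl4 and 67NR 1 of 7 was higher and 2 were lower (44.6% of all genes were called), and 1 was called without 66cl4 replicate 1 or either 67NR replicate.

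**Figure D4:**
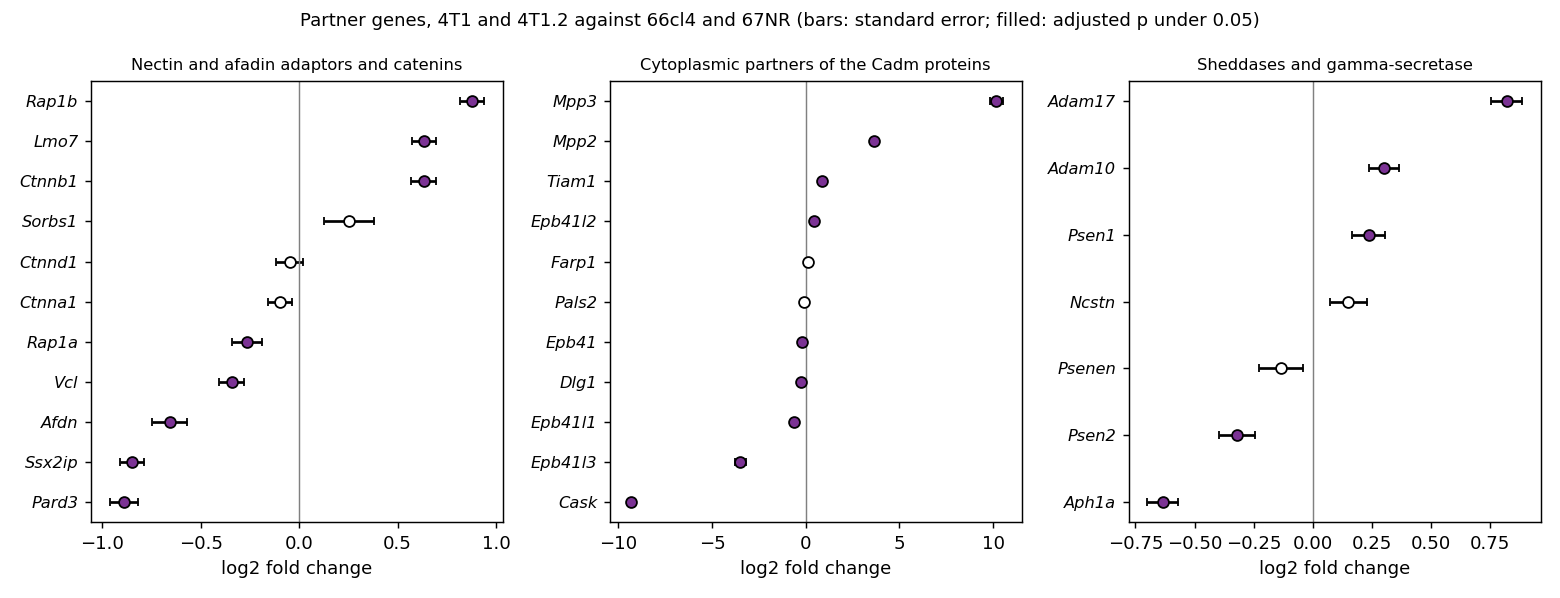
Log2 fold changes of the 29 partner genes for 4T1 with 4T1.2 over 66cl4 with 67NR, with standard errors and filled points for an adjusted p under 0.05, in 3 panels with their own axes. Cask at -9.32 and Mpp3 at 10.16 lay farthest out, and the Mpp3 value depends on the prior count because 66cl4 had no reads. Cask, Mpp3 and Epb41l3 had few or no reads in a pair of lines, so their filled points are descriptions.

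The immune receptors that bind Pvr, Nectin2 or Cadm1 were mostly without reads in these cultured tumour cells. Cd226 had none, Cd96 at most 2 and Crtam, the receptor of Cadm1, at most 7 in a library, and Pvrig was not analysed here. Tigit, an inhibitory receptor of T cells and natural killer cells, was the exception, with 660 to 1538 reads in every library. Its mean level was 18.7 ± 1.37 CPM for 4T1.2 and 23.0 ± 1.33 for 4T1, compared with 15.0 ± 0.562 for 66cl4 and 24.7 ± 0.336 for 67NR (SD, n = 2). No Tigit difference was called between the means of the pairs (log2 difference 0.11, edgeR adjusted p 0.207), and Tigit was lower in 66cl4 than in 67NR (-0.72, SE 0.11, edgeR adjusted p 0.000447). In the same libraries the leucocyte gene Ptprc had at most 2 reads and the T cell gene Cd3e none. Of the other leucocyte markers, Cd79a had 5 to 35 reads and Itgam 0 to 16. Of the Tigit stretches of 75 bases, 0.237% are shared with another annotated gene.

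Genes with a pattern like that of Cadm1 were looked for by the Pearson r of log2 CPM over the 8 libraries, which are 4 lines with 2 replicates each. The 10 highest were Il15, Prrx1, Dpysl3, Lrrn4cl, Plppr2, Kcnf1, Twist2, Naip5, Fgf10 and Cd34, with r of 0.999 for each. They include mesenchymal transcription factors (Prrx1 and Twist2), a cytokine that sustains natural killer cells (Il15) and a fibroblast growth factor (Fgf10). Many genes share this pattern, and 250 of 13912 (1.80%) had an r of at least 0.99. Among the family, r with Cadm1 was 0.96 for Nectin4, 0.60 for Cadm2 and 0.32 for Nectin3, and it was -0.99 for Nectin1, -0.98 for Cadm4, -0.98 for Nectin2 and -0.92 for Pvr.

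The genes beside Cadm1 on chromosome 9 differed in pattern. Nxpe4, the next protein-coding gene, lies 299724 bases away and had 3 to 12 reads in the libraries of 4T1.2 and 4T1, compared with 136 and 123 for 66cl4 and 288 and 496 for 67NR. Its log2 difference between the means of the pairs was -5.20, with its highest level in 67NR and not in 66cl4. Beyond it, Rexo2 (-0.19, edgeR adjusted p 0.0192) and Rbm7 (-0.25, edgeR adjusted p 0.0213) were slightly lower in the mean of 4T1 and 4T1.2. The Rexo2 level was higher in 67NR alone, at 109 and 116 CPM. Its 66cl4 libraries, at 61.9 and 62.7 CPM, lay below those of 4T1.2 (65.3 and 73.3) and 4T1 (75.2 and 79.5). On the other side Zpr1 (-0.12, edgeR adjusted p 0.101) and Bud13 (-0.18, edgeR adjusted p 0.0829) were not called. Apoa5 had 40 and 92 reads in 67NR and 0 to 6 in the other lines, 66cl4 included. It passed the filter on low counts through 67NR alone, so its log2 difference between the means of the pairs (-2.31) is given with no p. Gm4791 had no reads, and 4931429L15Rik and Nxpe2 had at most 8.

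**Figure D5:**
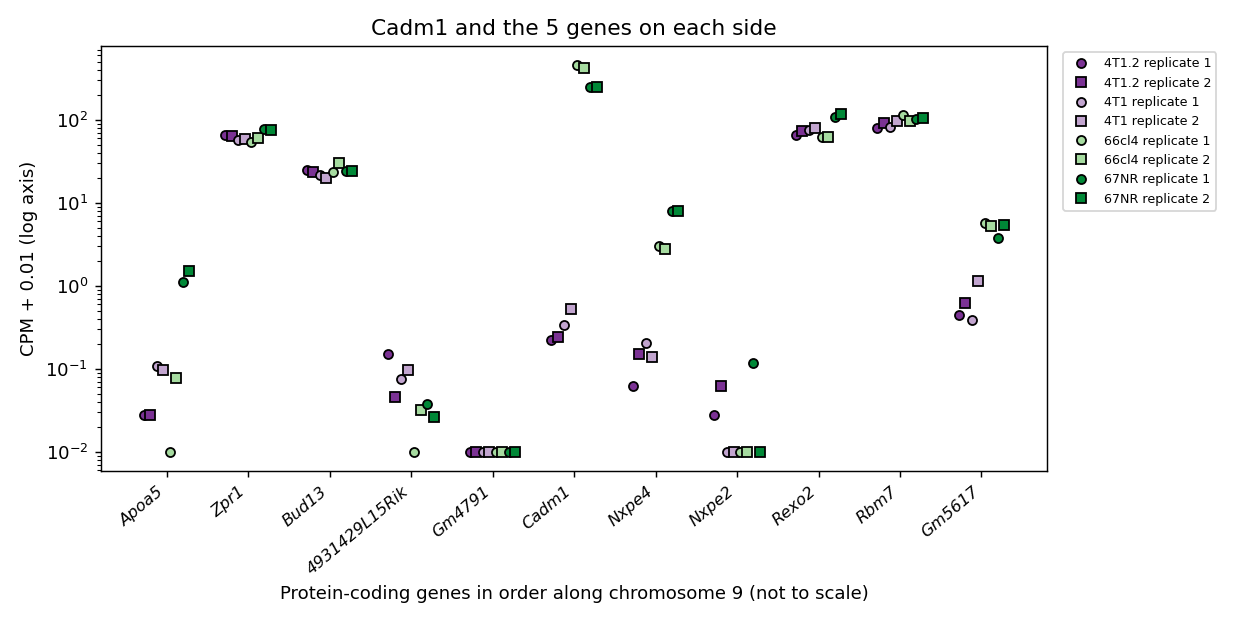
CPM plus 0.01 on a log axis for Cadm1 and the 5 protein-coding genes on each side of it in chromosome order, with a point for each library (colour for the line, shape for the replicate). Cadm1 spans from 0.211 to 453 CPM, and Nxpe4 follows with a smaller gap between the pairs. Zpr1, Bud13, Rexo2 and Rbm7 span far less on this axis, with Rexo2 the widest at 61.9 CPM in 66cl4 to 116 CPM in 67NR.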

How the data were processed

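RNA-seq had been performed on total RNA of 4 tumour cell lines with the TruSeq RNA v2 protocol. The authors aligned reads to mm10, used featureCounts for the count of each Entrez gene, and deposited raw counts per gene with the gene length in bases. The use of strand is not given in the sources used here. Of 27179 genes, 25275 (93%) matched an entry of the gene table. Libraries held 37159840 to 66269681 counts, which sets the counting error of low genes.

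Members and gene lists were chosen with earlier results of these data known. Named genes are the 9 members, the 2 most increased and the 2 most decreased called members of each list, the 10 genes most like Cadm1 and its 5 neighbours on each side. The epithelial, mesenchymal and leucocyte genes named come from the marker lists. These, Afdn, Epb41l1, Tiam1, Psenen and the receptors were named after their values were seen.

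Counts were tested with edgeR 4.0.16 in R 4.3.3 (quasi-likelihood F-test, TMM scaling, a mean per line over all 8 libraries, 4 residual degrees of freedom). filterByExpr left 15269 genes, and removal of genes with no entry, predicted genes and ribosomal genes left 13913. P-values were adjusted by Benjamini-Hochberg over these genes. Fitted fold changes used a prior count of 0.125. A standard error is the fold change divided by the square root of F and is approximate, as are the 95% intervals. RPKM is CPM at TMM-scaled library size per kilobase of the deposited length. Counting intervals of ratios are exact binomial. Replicates of a line differed by more than sampling noise, so none was counted as a duplicate. The test was checked on simulated data. Alternatives were DESeq2 1.42.0 (size factors or test), limma-voom (limma 3.58.1), the newer edgeR fit, no filter, no removal by annotation, a prior count of 2, a replicate block and leaving out each library.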

Additional observations from a re-analysis of the deposited data

How the results depend on the processing

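Calls of the members between the means of the pairs numbered 5 under all 15 alternatives. These include Nectin1 and Nectin4, which passed the filter on low counts only through the lines where they are high. For them the unchanged count is a description. Of all list and member counts, 281 stayed within 1.5 times and 19 did not. Between 4T1.2 and 4T1, 1 to 3 members were called when a library was left out, against 2 with all. In that comparison the adaptors and catenins had 1 call by DESeq2, 1 by limma-voom and 0 to 1 with a library left out, against 0. The sheddases had 0 without removal by annotation and 0 to 1 with a library left out, against 1. Between 66cl4 and 67NR the sheddases had 1 to 4 calls with a library left out, against 3. Without the filter on low counts 1 immune receptor was called between the means of the pairs, against 0. Fold changes that changed sign, all short of the threshold, were those of Nectin1 for 4T1.2 against 4T1 (-0.33 without 4T1.2 replicate 1, -0.10 without 4T1 replicate 2, up to 0.38), Nectin3 for 4T1.2 against 66cl4 (-0.08 without 4T1.2 replicate 2, and over all left-out libraries -0.12 to 0.16) and Nectin3 for 66cl4 against 67NR (-0.040 to 0.24 with a library left out). The adjusted p of Nectin3 for any difference among the lines was 0.0472, with a range of 0.0203 to 0.178. The cause of these changes was not tested. Where a library was left out, the lone sample of its line was assumed to vary like the others.

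Deviations of same-numbered libraries correlated at -0.123 (4T1.2 with 66cl4) to 0.269 (4T1.2 with 4T1). These values do not settle whether replicate numbers pair the samples. With the replicate block, the member calls numbered 5 between the means of the pairs, 2 for 4T1.2 over 4T1 and 3 for 66cl4 over 67NR. These counts were the same without it. Of all genes, 10788 were called between the means of the pairs, against 10676 without the block. For 4T1.2 against 4T1 the block gave 2879 against 2681, and for 66cl4 against 67NR 6415 against 6210. Genes with few reads, such as Cadm2, Cadm3 and Nectin4, are limited by counting error.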

Other observations

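Several members share a chromosome (GRCm38.p6), at distances of 154 kb to 20.2 Mb. Nectin2 and Pvr lie 154 kb apart on chromosome 7, with Cadm4 4.56 Mb from Pvr, and all 3 were higher in the mean of 4T1 and 4T1.2. Within the pairs they differed: Nectin2 was not called in either, Cadm4 was higher and Pvr lower in 4T1.2 than in 4T1, and both were lower in 66cl4 than in 67NR. Cadm1 and Nectin1 lie 3.72 Mb apart on chromosome 9 and were high in opposite pairs of lines. On chromosome 1, Cadm3 and Nectin4 lie 1.94 Mb apart, and on chromosome 16, Cadm2 and Nectin3 lie 20.2 Mb apart.

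Gm5617, at the far end of the 5 neighbours of Cadm1, had 23 to 52 reads in the libraries of 4T1.2 and 4T1 and 139 to 331 in those of 66cl4 and 67NR. It was left out of the test as a predicted gene.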
